A study of Homo sapiens with 6 samples.

Results

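The NEK family of kinases was examined in MDA-MB-231 cells, a human triple-negative breast cancer (TNBC) cell line of mesenchymal phenotype, after silencing of 1 of its members, NEK2. The family was taken as the 9 genes NEK1, NEK2, NEK3, NEK4, NEK6, NEK7, NEK8, NEK9 and NEK11, each found by its symbol in 1 row of the 74852 genes listed in the expression table. All 9 passed the filter of a mean of at least 10 normalized counts, which left 18717 genes for testing. In the study, polyA-enriched RNA was sequenced from 3 libraries of cells transfected with control siRNAs that target no gene (si-CTRL) and from 3 libraries of cells transfected with siRNAs against NEK2 (si-NEK2). Cells of both groups were of 1 line, received lipid-based transfection 2 times and, per the sample records, were collected 24 h after the second one. The methods of the study state a different interval after transfection and mention no second transfection. A normalized count is the number of reads on a gene divided by the size factor of the library. The methods of the study give a harvest in triplicate, and neither they nor the records say that the 3 libraries of a group came from separate transfections. The p-values therefore measure the spread between these libraries, which may be technical.

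The libraries held between 52625492 and 87454509 reads on genes, and 1 read was worth between 0.818 and 1.25 normalized counts. On all tested genes, the first principal component (61.7% of the variance) separated si-NEK2 from si-CTRL libraries. On the second (16.2%), si-CTRL replicate 1 had a score of 38.9 and si-CTRL replicates 2 and 3 had scores of -26.1 and -21.2, while si-NEK2 libraries ranged from -4.41 to 16.9. Values without si-CTRL replicate 1 are given for the members whose call they change and for part of the results of the lists. They are not given for every gene named. The records of the si-CTRL samples, and not those of the si-NEK2 samples, point to other sample records. No source used here says if si-CTRL and si-NEK2 libraries were made together, so that a batch and the silencing cannot be told apart.

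NEK kinases are serine/threonine kinases named after NIMA, a fungal kinase that cells need to enter mitosis. NEK2 sits at the centrosome, where it phosphorylates the proteins that tether both centrosomes and so lets them separate before the spindle forms. NEK9 activates the closely related NEK6 and NEK7 in mitosis, and this cascade acts on the kinesin KIF11 and the spindle. The other members are mostly known from cilia (NEK1, NEK4, NEK8) and from the response to DNA damage (NEK1, NEK8, NEK11).

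The kinase domains are the stretch that the family shares, and a window of 17 coding bases from it is shown for all members. It was chosen as the longest run of coding bases that NEK7 shares with NEK2, so that the full match of NEK7 follows from the choice. In NEK2 it spans codons 180 to 185 (GRCh38, GENCODE 29, minus strand, chr1:211673484-211673500) and in NEK7 codons 200 to 205 (plus strand, chr1:198292953-198292969). Lower case marks bases equal to NEK2 at the aligned position, and capitals mark bases that differ.
NEK2: ccttattacatgtctcc
NEK7: ccttattacatgtctcc
NEK9: ccAtattacatgtctcc
NEK6: ccCtaCtacatgtcAcc
NEK3: ccttattaTGtgCctcc
NEK1: ccAtaCtacTtgtcAcc
NEK4: ccCtaCtacatgAGCcc
NEK11: ccCCattaTatgAGtcc
NEK8: ccAtGCtaTatCtcCcc

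NEK7 carried all 17 bases of the NEK2 window and NEK9 carried 16 of them. NEK6 and NEK3 each carried 14, NEK1 carried 13, NEK4 and NEK11 each carried 12, and NEK8 carried 11. Over whole coding sequences, the longest run shared with NEK2 was 17 bases for NEK7, 14 for NEK9 and between 9 and 13 for the other members. Over all annotated transcripts, untranslated parts included, it was 38 bases for NEK9, 30 for NEK4, 17 for NEK7 and 12 or 13 for the other members. NEK7 was thus not the member with the longest run shared with the NEK2 transcripts. The siRNA sequences were not compared with these windows, and whether shared bases bear on the level of any member was not tested. At the protein level NEK7 was no closer to NEK2 than its relatives were. NEK7 and NEK2 had 37.4% identical residues in their local alignment, within the range of 35.7% (NEK11) to 43.8% (NEK1) for NEK2 and the other members. NEK6 and NEK7 were the closest pair of the family, with 238 of 287 aligned residues identical (82.9%).

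The target of the siRNAs comes first. NEK2 (GSHG0002936, hg19, chr1:211831601-211848972) had 3702, 3323 and 3290 normalized counts in si-CTRL replicates 1, 2 and 3, and 284, 362 and 388 in si-NEK2 replicates 1, 2 and 3. All si-NEK2 libraries lay far below all si-CTRL libraries, and 10.0% of the si-CTRL mean remained. On the log2(value + 1) scale used for all fold changes, on which changes of weakly expressed genes appear smaller than they are, NEK2 fell by 3.32 (standard error 0.12, adjusted p = 1.86e-06, limma with Benjamini-Hochberg adjustment). This drop ranked 21 among 18717 tested genes ordered from the most negative log2 fold change.

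Of the 8 other members, NEK7 and NEK3 fell and no member rose. Both passed an adjusted p of at most 0.05, and both passed the criteria of the study for a regulated gene, a change of 1.5-fold or more together with a p-value not above 0.05. Thus 2 of 8 (25.0%) were regulated downward, where 14.3% of all tested genes were, and 0 of 8 upward, where 8.23% were. By adjusted p alone 2 of 8 were lower and 0 were higher, where 21.3% and 21.8% of all tested genes were lower and higher. Shares over 8 genes are coarse, and their difference from the background was not tested. Scaling to equal totals gave 5262 lower and 2580 higher genes by adjusted p, against 3981 and 4082 here. The median log2 fold change of the 8 members was 0.13, beside 0.012 over all tested genes. In 4 of 8 members the values of the groups did not overlap, and this held for 55.0% of all tested genes.

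**Figure D1:**
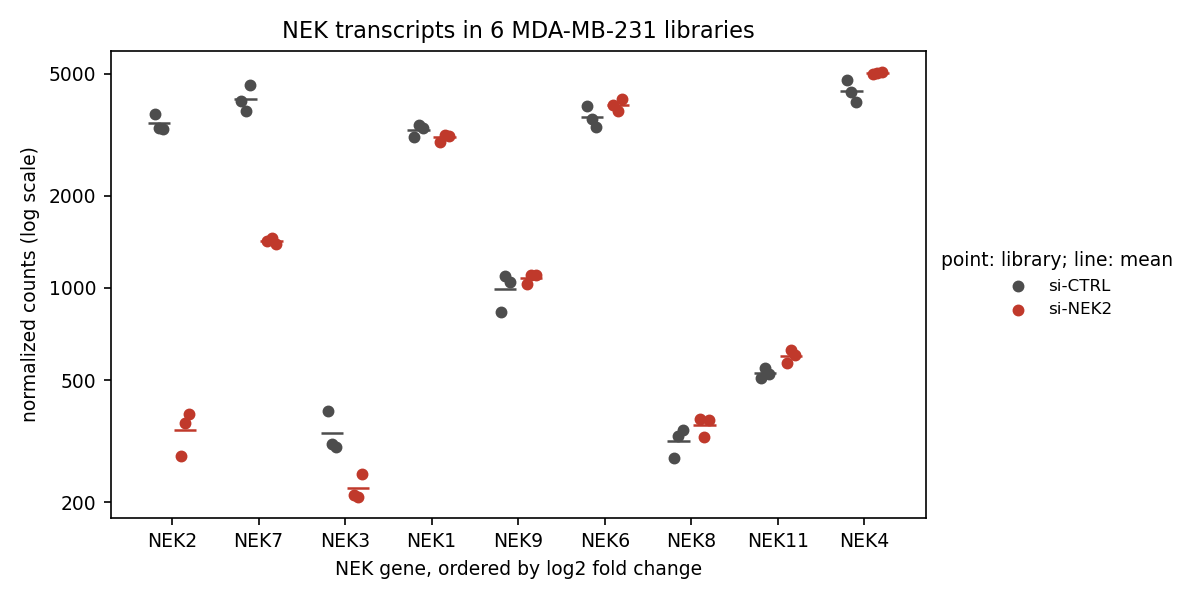
Normalized counts (log axis) of the 9 NEK genes in the 3 si-CTRL libraries (grey) and the 3 si-NEK2 libraries (red), 1 point per library, with the group mean as a line. NEK2 and NEK7 show the widest gaps, with 10.0% and 34.3% of the si-CTRL mean remaining, and the groups of NEK3, NEK11 and NEK4 also do not overlap.

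NEK7, which besides its mitotic role binds the inflammasome sensor NLRP3, showed the widest difference after NEK2. NEK7 (GSHG0001308, chr1:198126108-198291550) had 4058, 3771 and 4588 normalized counts in si-CTRL libraries and 1426, 1452 and 1387 in si-NEK2 libraries. The lowest si-CTRL value was far above the highest si-NEK2 value, and the 3 si-NEK2 values lay close together. The mean fell from 4139 ± 415 to 1422 ± 32.8 (SD, n = 3), to 34.3% of si-CTRL. NEK7 was 2.90-fold lower, with a log2 fold change of -1.54 (95% interval -1.73 to -1.34, adjusted p = 6.72e-06, limma with Benjamini-Hochberg adjustment). Of all tested genes, 2.30% had a log2 fold change as low or lower. Under 17 other settings of the fit the value stayed between -1.66 and -1.46, and the adjusted p never exceeded 0.0005.

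NEK6, the closest relative of NEK7, did not pass the test. NEK6 (GSHG0030439, chr9:127019885-127114717) had 3909, 3567 and 3343 normalized counts in si-CTRL libraries and 3947, 3762 and 4119 in si-NEK2 libraries. The groups overlapped, and the log2 difference was 0.13 (95% interval -0.05 to 0.31, adjusted p = 0.211, limma with Benjamini-Hochberg adjustment). Without si-CTRL replicate 1 it was 0.19 with an adjusted p of 0.0225. Within a library, the ratio of NEK7 to NEK6 per kilobase of gene model was 0.974, 0.992 and 1.29 in si-CTRL libraries and 0.339, 0.362 and 0.316 in si-NEK2 libraries. The ratio thus went from 1.08 ± 0.18 to 0.339 ± 0.023 (SD, n = 3) without overlap, with an exact two-sided permutation p of 0.1, the smallest that 3 against 3 libraries can give.

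NEK9, the activator of NEK6 and NEK7, had 834, 1097 and 1045 normalized counts in si-CTRL libraries and 1032, 1100 and 1099 in si-NEK2 libraries (GSHG0009499, chr14:75548819-75593778). Apart from the low value of si-CTRL replicate 1 the libraries were level, and the groups overlapped. Its log2 difference of 0.13 (95% interval -0.12 to 0.38, adjusted p = 0.387, limma) had no stable direction, since it was -0.00023 when libraries were scaled to equal totals and 0.0076 without si-CTRL replicate 1. NEK9 matched 16 of the 17 bases of the NEK2 window, which was not chosen as a site of the siRNAs. Whether this match bears on the level of NEK9 was not tested.

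NEK3, a kinase known from signaling of the prolactin receptor, is among the less abundant members. NEK3 (GSHG0008508, chr13:52706775-52733996) had 396, 309 and 302 normalized counts in si-CTRL libraries and 211, 209 and 248 in si-NEK2 libraries. The groups did not overlap, and si-CTRL replicate 1 was the highest library. The mean fell from 335.8 ± 52.4 to 222.5 ± 21.7 (SD, n = 3), so that 66.2% remained. Its log2 fold change of -0.59 (95% interval -0.90 to -0.27, adjusted p = 0.00923, limma with Benjamini-Hochberg adjustment) sat at the limit of the fold criterion, with a fold change of 1.50026 against 1.5. The adjusted p remained at or below 0.0440 under all 17 other settings, with log2 fold changes of -0.71 to -0.43. The fold criterion was missed with a pseudocount of 5, with quantile normalization, and without si-CTRL replicate 1, si-NEK2 replicate 1 or si-NEK2 replicate 2.

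NEK1, NEK4 and NEK8 are the members best known from cilia, and none passed the test. NEK4 (GSHG0021768, chr3:52744796-52804965) had 4756, 4344 and 4047 normalized counts in si-CTRL libraries and 4995, 5037 and 5060 in si-NEK2 libraries. The groups did not overlap, yet the log2 difference was only 0.20 (95% interval 0.04 to 0.37) and its adjusted p of 0.0526 (limma, Benjamini-Hochberg) missed the threshold. The adjusted p of NEK4 was 0.00209 without si-CTRL replicate 1, 0.0462 with a filter at a mean of 50 and 0.456 with libraries scaled to equal totals (limma).

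NEK1 (GSHG0023636, chr4:170314422-170533778), whose mutation in mice gives polycystic kidneys, had 3113, 3403 and 3326 normalized counts in si-CTRL libraries and 2988, 3163 and 3137 in si-NEK2 libraries. The groups overlapped, with a log2 difference of -0.08 (95% interval -0.24 to 0.07, adjusted p = 0.354, limma). It was the member other than NEK7 and NEK3 with a negative value. Scaling to equal totals, which moved the median of all tested genes to -0.11, gave NEK1 -0.21 and an adjusted p of 0.0347.

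NEK8 (GSHG0012348, chr17:27055798-27069784), a nephronophthisis gene product of the ciliary base, had 279, 328 and 343 normalized counts in si-CTRL libraries and 375, 327 and 370 in si-NEK2 libraries. The groups overlapped, and the log2 difference was 0.18 (95% interval -0.09 to 0.45, adjusted p = 0.265, limma), or 0.088 without si-CTRL replicate 1. NEK11 (GSHG0021155, chr3:130745694-131069308), a checkpoint kinase that marks the phosphatase CDC25A for degradation after DNA damage, had 509, 548 and 526 against 569, 627 and 603 normalized counts. Its groups did not overlap, and its log2 difference was 0.18 (95% interval -0.02 to 0.38, adjusted p = 0.125, limma). NEK11 overlaps ASTE1 by its first bases in the coordinates of the table. ASTE1 went from a mean of 727.4 to 847.6 normalized counts, and whether reads were shared between both genes was not tested. With quantile normalization, the differences of NEK8 and NEK11 were 0.33 and 0.29 and both passed, with adjusted p-values of 0.0490 and 0.0301 (limma).

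For all 6 members that did not pass, the 95% interval of the difference lay within a 1.5-fold change in either direction. Of the 6 values 5 were positive, beside a median of 0.012 over all tested genes. With equal totals these 5 lay between -0.00023 (NEK9) and 0.074 (NEK4), beside a median of -0.11 over all tested genes.

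**Figure D2:**
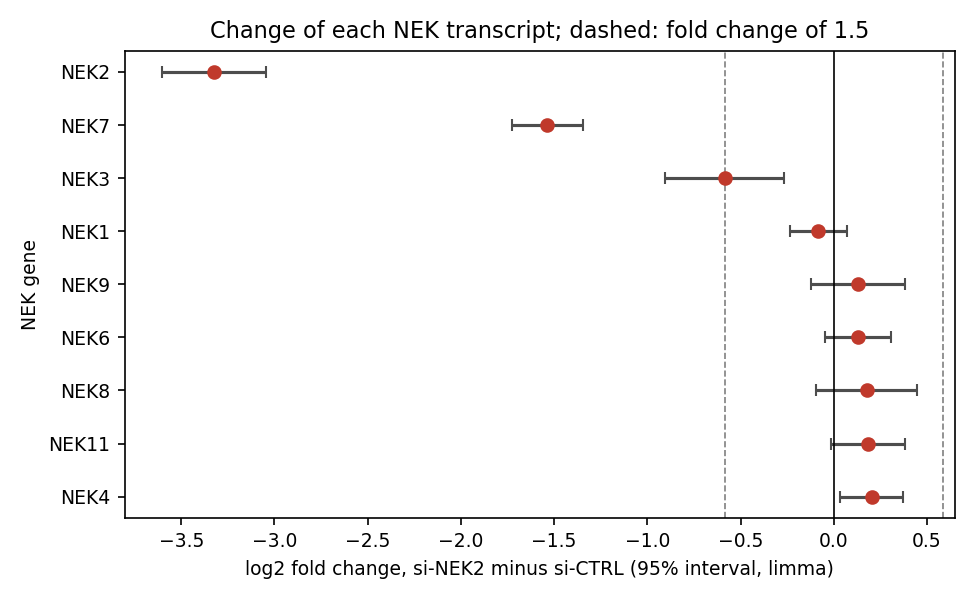
Log2 fold change (si-NEK2 minus si-CTRL, limma on log2(value + 1)) of each NEK gene with its 95% interval, dashed lines at a 1.5-fold change. NEK2 at -3.32 and NEK7 at -1.54 lie beyond the line, NEK3 at -0.59 lies on it, and the other 6 intervals stay inside.

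**Figure D3:**
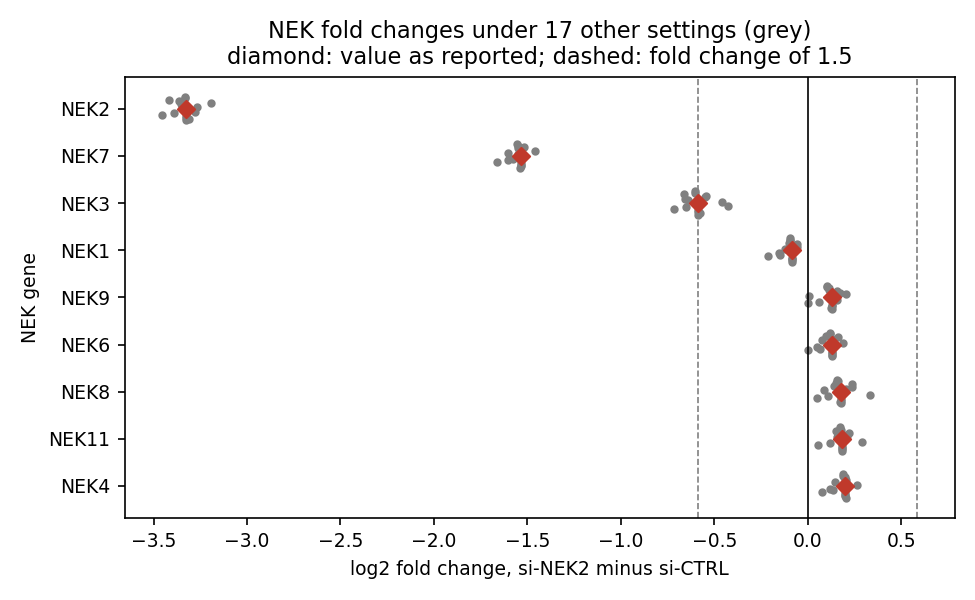
The same log2 fold changes (red diamonds) with the values under 17 other settings of normalization, filter, test and libraries (grey points). NEK7 keeps between -1.66 and -1.46, NEK3 crosses the 1.5-fold line (-0.71 to -0.43), and NEK9 reaches 0.

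Other NEK genes in the table were not among the members. NEK5 had 0 reads in each si-CTRL library, which allows up to 3 reads, and 5, 3 and 2 reads in si-NEK2 libraries, below the filter. NEK10 had 172, 217 and 236 reads in si-CTRL libraries and 394, 361 and 274 in si-NEK2 libraries, or 215, 210 and 224 against 322, 326 and 292 normalized counts. The NEK10 mean in si-NEK2 libraries was 144.9% of that in si-CTRL libraries. Its values did not overlap between the groups, which held for 55.0% of all tested genes.

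Levels of different members were compared per kilobase (kb) of the merged exons of each gene model. In si-CTRL cells NEK2 was the most abundant NEK transcript, with 1196 ± 79.6 normalized counts per kb (SD, n = 3). NEK7 followed with 950.8 ± 95.2, NEK6 with 883.1 ± 69.8, NEK4 with 713.1 ± 57.9 and NEK1 with 570.2 ± 26.1. NEK11, NEK3, NEK9 and NEK8 formed a low group, between 88.5 and 146.3 normalized counts per kb on average. NEK7 and NEK6 overlapped in their si-CTRL libraries, as did NEK3 with NEK11 and with NEK9, so that the order within these neighbours is not resolved.

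In si-NEK2 cells NEK6 came first, with 965.4 ± 43.7 normalized counts per kb, followed by NEK4 (818.7 ± 5.39) and NEK1 (538.0 ± 16.4). NEK7 moved from the second to the 4th place (326.6 ± 7.54) and NEK2 from the first to the 7th (120.0 ± 18.9). The libraries of NEK2 (98.8 to 135.1) then overlapped those of NEK9 (124.2 to 132.4) and NEK8 (91.4 to 104.7), so that its place among these 3 is not resolved. The share of NEK2 in the summed level per kb of the 9 members went from 25.0% ± 0.93 to 3.69% ± 0.52, and that of NEK7 from 19.9% ± 2.10 to 10.1% ± 0.42. The NEK2 share depends on the length used, and came to 16.3% in si-CTRL cells on normalized counts without length.

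The summed level of the 9 members went from 4790 ± 145.9 to 3246 ± 70.4 normalized counts per kb (67.8% remaining). Without NEK2 it went from 3594 ± 71.2 to 3126 ± 55.1 (87.0% remaining). Without NEK2 and NEK7, the other 7 members summed to 2643 ± 102.6 and 2799 ± 61.8 (105.9%). As deposited, each of these 3 sums had groups without overlap and an exact two-sided permutation p of 0.1, the smallest possible here. The sum of the 7 had no stable direction, since it came to 96.9% of si-CTRL with equal totals and 101.2% with upper quartile scaling, where the groups overlapped.

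**Figure D4:**
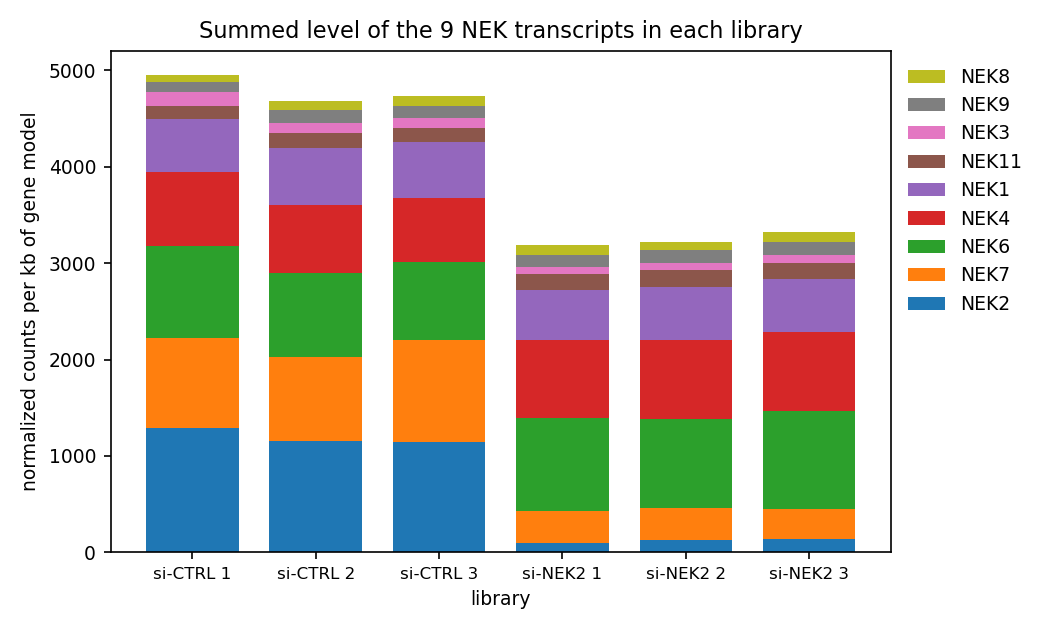
Summed level of the 9 NEK transcripts in each library, in normalized counts per kb of gene model, stacked by gene. The bars of si-CTRL libraries lie between 4683 and 4956 and those of si-NEK2 libraries between 3189 and 3324, with NEK2 (blue) and NEK7 (orange) shrunken and NEK6 (green) the widest band after silencing.

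Partners and substrates of the kinases were then read in 5 lists. Over 95 distinct genes tested, 16 fell and 35 rose at an adjusted p of at most 0.05 (limma), 16.8% and 36.8%, beside 21.3% and 21.8% of all tested genes. By the criteria of p and 1.5-fold change 5 fell and 5 rose, or 5.26% each, beside 14.3% and 8.23% of all tested genes. The median log2 fold change was 0.11, beside 0.012 over all genes. Scaling to equal totals moved the balance of higher and lower calls in all 5 lists, and its counts stand beside the others.

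Among 24 genes of the centrosome linker and of NEK2 partners, 10 rose and 3 fell, with a median of 0.15 (6 rose and 5 fell with equal totals, and 12 and 4 without si-CTRL replicate 1). PPP1CC encodes a phosphatase subunit that counteracts NEK2 at the centrosome. It had 11052, 12651 and 12849 normalized counts in si-CTRL libraries and 19518, 20011 and 20464 in si-NEK2 libraries. The groups were far apart, and PPP1CC rose by 0.72 (standard error 0.07, adjusted p = 0.000124, limma). PPP1CA, also in the list, had means of 16888 in si-CTRL and 15127 in si-NEK2 libraries. Its log2 difference was -0.16 (adjusted p = 0.0843, limma). CTNNB1, beta-catenin, rose by 0.65, the survivin gene BIRC5 by 0.46 and the NEK2 inhibitor CEP85 by 0.37. In the other settings CTNNB1 rose by 0.52 to 0.70. The linker genes themselves moved less. CEP250, which encodes the NEK2 substrate C-Nap1, rose by 0.36 (adjusted p = 0.0150, limma, up to 0.0870 and above the threshold in 4 of 17 other settings), and CROCC, which encodes the rootletin fibres, had a log2 difference of 0.05 (adjusted p = 0.872). CNTLN, a linker component, fell by 0.34 (adjusted p = 0.0113, limma) and passed in every other setting run. LRRC45, another one, fell by 0.25 (adjusted p = 0.0497, limma) and lost its call in 9 of 17 other settings.

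Among 19 genes of the NEK9, NEK6 and NEK7 spindle pathway, 6 rose and 6 fell, with a median of -0.02 (3 rose and 8 fell with equal totals). Without si-CTRL replicate 1 the median was 0.06. Its widest change was that of NLRP3, the partner of NEK7 outside mitosis. NLRP3 had 1021, 796 and 928 normalized counts in si-CTRL libraries and 115, 100 and 126 in si-NEK2 libraries. All si-NEK2 values were several times lower, and NLRP3 fell by 3.0 on the log2 scale (standard error 0.13, adjusted p = 4.08e-06, limma), with values of -3.13 to -2.88 in the other settings. NLRP3 is an inflammasome gene, not a spindle gene, and stands in the list as a partner of NEK7.

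All other genes of this list changed less than NLRP3. HAUS6 rose by 0.43 and EML2 fell by 0.37, and both passed in every other setting run. KIF11, the kinesin that NEK6 and NEK7 phosphorylate, rose by 0.21 (adjusted p = 0.0318, limma) but lost its call in 11 of 17 other settings. TPX2 fell by 0.40 and passed in every other setting run, and the upstream kinase PLK1 fell by 0.23 (adjusted p = 0.0366, limma) but lost its call in 7. Among heat shock proteins, of which HSP72 is a NEK6 substrate, HSPA1B and HSPA1A rose by 1.09 and 0.72, and HSPA8 fell by 0.58. HSPA1A and HSPA1B are nearly identical copies, and how reads were split between them is uncertain.

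Among 19 ciliary and nephronophthisis partners of NEK1, NEK4 and NEK8, 8 fell and 3 rose, with a median of -0.18 (10 fell and 1 rose with equal totals). The 4 that fell by at least 1.5-fold were CEP290 (-0.68) and RPGR (-0.65), both of the ciliary transition zone, ANKS6 (-0.61), an activator of NEK8, and WWTR1 (-0.60), the Hippo pathway coactivator TAZ. ANKS6 had 2026, 1550 and 1598 normalized counts in si-CTRL libraries and 1106, 1019 and 1246 in si-NEK2 libraries. These groups did not overlap (adjusted p = 0.00366, limma). INVS, another partner of NEK8 at the ciliary base, fell by 0.29. Of the 3 that rose, IFT20 rose by 0.58 (adjusted p = 0.00101, limma) and passed in every other setting run. ANKS3 and KIF3A rose by 0.34 and 0.33 but lost their calls in 10 and 2 of 17 other settings. WWTR1 was highest in si-CTRL replicate 1, and its adjusted p was 0.0588 without si-NEK2 replicate 1 (limma). Without si-CTRL replicate 1, 2 genes of the list fell by at least 1.5-fold.

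Among 15 DNA damage partners of NEK1, NEK8 and NEK11, 6 rose and none fell, with a median of 0.20 (3 rose and 1 fell with equal totals). RAD54L, a NEK1 substrate in DNA repair, rose by 0.35. CHEK1 and BTRC each rose by 0.32, although the adjusted p of CHEK1 was 0.0772 with equal totals and 0.0515 without si-NEK2 replicate 2 (limma). CDC25A, the NEK11 substrate, rose by 0.28 (adjusted p = 0.00730, limma, and 0.0922 with equal totals). Without si-CTRL replicate 1, 8 genes rose and 1 fell.

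NEK2 is itself expressed in G2 and M phase, so that other genes of these phases were read beside it. Of 25, 14 rose and 2 fell, with a median of 0.24 (7 rose and 4 fell with equal totals, and 17 and 3 without si-CTRL replicate 1). The spindle checkpoint kinase BUB1 rose by 0.66 (adjusted p = 8.50e-05, limma), and the cyclins CCNB1 and CCNA2 by 0.58 and 0.56. In the other settings CCNB1 rose by 0.45 to 0.65 and CCNA2 by 0.43 to 0.61. The 2 that fell were PLK1 and TPX2, named above. Of the 25 genes, 9 did not pass the test, among them MKI67 with a log2 difference of -0.25 (adjusted p = 0.148, limma).

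**Figure D5:**
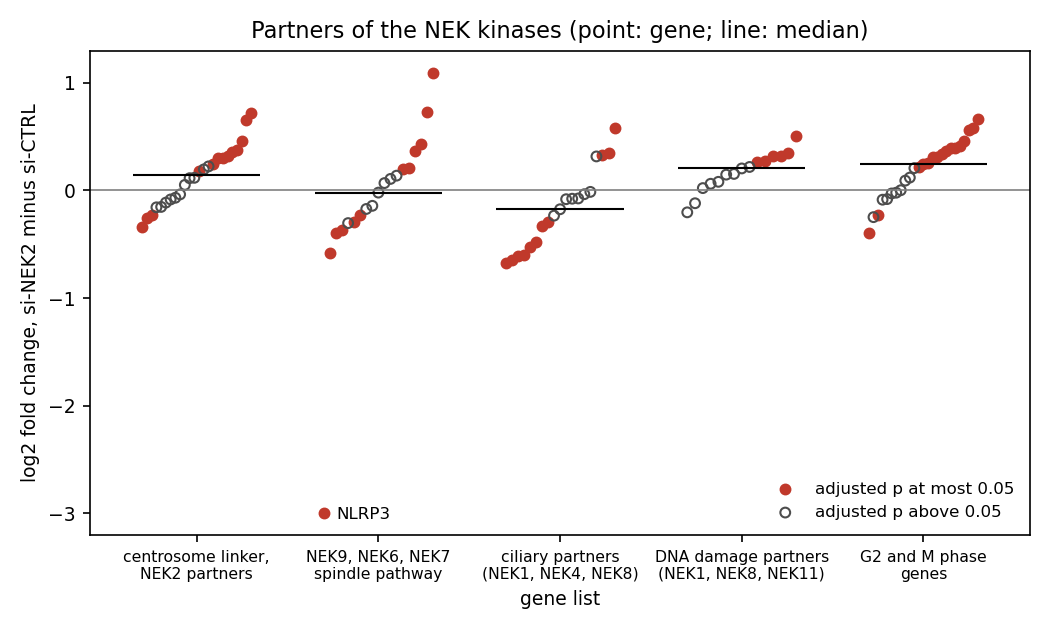
Log2 fold change (si-NEK2 minus si-CTRL) of each tested gene in 5 lists of NEK partners, filled red where the adjusted p was at most 0.05 and open elsewhere, with the median of each list as a line. Medians lie between -0.18 and 0.24, and NLRP3 at -3.0 lies below all other genes of the lists.

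The genes whose log2 values over the 6 libraries were most like those of NEK2 were sought among 12915 genes with a symbol and a mean of at least 50, by the root mean square difference after centring. IL1B and IL1A, which encode interleukin 1 cytokines, came first, with differences of 0.15 and 0.17. The nucleoside transporter SLC28A3 (0.19), the complement receptor CR1 (0.21) and the membrane receptor SIRPB1 (0.23) followed. These 5 genes had between 8.56% and 10.4% of their si-CTRL mean left, beside 10.0% for NEK2. With 6 libraries in 2 groups, this measure follows mainly the size of the difference between the groups.

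The cell line was checked against its markers. All 11 mesenchymal and basal B markers were expressed, among them VIM with means of 157264 and 138731 normalized counts. ZEB1 and CD44 fell by 0.82 and 0.76, with values of -0.95 to -0.70 and -0.93 to -0.575 in the other settings. CAV1 rose by 0.69 (adjusted p = 5.46e-05, limma), and 4 of the 11, VIM among them, did not pass the test. In all, 6 of the 11 fell and 1 rose by adjusted p (8 and 1 with equal totals), beside 21.3% and 21.8% of all tested genes. By p and 1.5-fold change 4 fell and 1 rose, beside 14.3% and 8.23% of all tested genes. Without si-CTRL replicate 1, 3 fell and 1 rose by these criteria. Of 13 luminal and hormone receptor markers 6 were under the filter, among them ESR1 (means of 8.22 and 5.69), PGR (0 and 0.546), CDH1 and EPCAM. Other markers of this list were high in both groups, with means of 17463 and 22587 for KRT8 and 24840 and 24560 for KRT18, which did not pass the test. Of the 7 tested, 4 rose and 1 fell. FOXA1 rose by 1.16, KRT19 by 0.55, the row shared by ERBB2 and MIR4728 by 0.53 and KRT8 by 0.37, while CLDN4 fell by 0.74. By p and 1.5-fold change 1 rose and 1 fell, and 3 rose and 1 fell without si-CTRL replicate 1. Of 10 fibroblast, leukocyte and endothelial markers, the leukocyte genes PTPRC (means of 7.25 and 12.9) and CD3E (0 and 0.546) were at or near 0. COL1A1 was high in both groups (means of 160257 and 141499) and did not pass the test. The row of CD68 is shared with EIF4A1 and other genes, so that its level cannot be given to CD68. Of the 8 tested, COL1A2 rose by 0.92, with an adjusted p of 0.0558 without si-NEK2 replicate 1 (limma). CDH5, with means of 30.5 and 13.7, fell by 1.06 (adjusted p = 0.0316, limma) but lost its call in 7 of 17 other settings. Over all 10 rows the summed level ranged from 264126 to 295146 normalized counts in si-CTRL libraries and from 264190 to 278296 in si-NEK2 libraries, nearly all of it COL1A1 and the shared row. Without both, the other 8 markers summed to between 744.4 and 892.0 in si-CTRL libraries and between 843.2 and 908.4 in si-NEK2 libraries. Most of this was PDGFRB, with means of 710.1 in si-CTRL and 753.5 in si-NEK2 libraries, which did not pass the test.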

How the data were processed

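RNA of MDA-MB-231 cells was made into stranded polyA libraries, 3 of si-CTRL and 3 of si-NEK2, grouped by the sample records. The authors deposited 1 signal per gene and library, the number of reads divided by the DESeq2 size factor, 1 column per replicate, on the FAST DB annotation (hg19). The submitters' processing notes name STAR 2.4.0, SAMtools, Picard, FastQC and DESeq2. The counter and its strand setting are not given in the sources used here, so that reads of overlapping genes cannot be assigned with certainty. For 100% of values the deposited signal corresponded to whole reads (tolerance 0.01 reads), and these sum to 52625492 to 87454509 per library. Limits drawn from 0 reads cover counting error only.

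Genes with a mean of at least 10 were tested with limma 3.58.1 (R 4.3.3; lmFit, eBayes with a trend) on log2(value + 1), with Benjamini-Hochberg adjustment over all 18717 genes. This test follows the deposited unit, and count models on the recovered reads, DESeq2 1.42.0 and the quasi-likelihood test of edgeR 4.0.16 with TMM, were alternatives, all tested on simulated data. Other alternatives were pseudocounts of 0.1 and 5, no filter or a mean of at least 50, a block for the replicate number, eBayes with no trend, scaling by equal total, upper quartile or quantiles, and each library left out. Sums and ratios were compared with exact permutation tests (scipy 1.17.1). Gene lengths, coding sequences and proteins were taken from GENCODE 29 on GRCh38, matched by symbol for all 9 members. Proteins were aligned locally with BLOSUM62. In the text, all members are named. From each list up to 4 genes are named, those with the largest change at an adjusted p of at most 0.05 and a mean of at least 50, and the 5 genes most like NEK2 are named. Some genes that this rule names are not reported here. CEP250, CROCC, CNTLN, LRRC45, KIF11, TPX2, PLK1, INVS, CDC25A and MKI67 were added after their values were seen, for their known link to a member, as were the marker genes that define a cell type. IFT20, ANKS3 and KIF3A were likewise added as the genes of the ciliary list that rose, and PPP1CA to stand beside PPP1CC. HAUS6 and EML2 were also added afterwards, as genes of the spindle pathway list that passed in every other setting run. The members and lists were chosen with earlier results of these data known.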

Additional observations from a re-analysis of the deposited data

How the results depend on the processing

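NEK2 stayed between -3.45 and -3.19 on the log2 scale under 17 alternatives, -3.42 to -3.19 with 1 library left out, and NEK7 and NEK3 kept their direction and an adjusted p of at most 0.05 (limma, or edgeR or DESeq2 in their own fits). Of the 8 other members, 2 passed the criteria of p and 1.5-fold change, against 1 with a pseudocount of 5 and 1 with quantile normalization, and 1 to 2 with 1 library left out. By adjusted p 2 passed, against 4 with quantile normalization (NEK3, NEK7, NEK8 and NEK11) and 2 to 4 with 1 library left out, where the 4 without si-CTRL replicate 1 were NEK3, NEK4, NEK6 and NEK7. NEK9 went from 0.13 to -0.00023 with equal totals, a scaling that shifts all genes downward. The log2 difference of the summed level without NEK2 was -0.20, against -0.16 without length, -0.33 with equal totals, -0.27 with upper quartile scaling, and -0.22 to -0.19 with 1 library left out. The NEK2 share in si-CTRL cells was 25.0%, against 16.3% without length, 29.4% with the longest coding transcript in place of the gene model, an alternative chosen after seeing the data, and 24.4% to 25.3% with 1 library left out. Of the 95 partner genes 51 passed by adjusted p, and 34 (without si-NEK2 replicate 2) to 61 (without si-CTRL replicate 1) passed in the alternatives, also counted after seeing the data. On the recovered reads edgeR called 2771 genes lower and 1434 higher by p and fold change, and DESeq2 2669 and 1370, with no p-value for 5 genes. The cause of these shifts was not tested.

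No shared effect of the replicate number was seen, since the deviations of same-numbered libraries from their group means correlated at -0.091, 0.047 and -0.15. This cannot tell whether same-numbered libraries were made together. With the replicate number as a block, NEK2 was at -3.32, 2 of the 8 other members passed by either criterion, 41 partner genes passed, and of all genes 2585 were regulated downward and 1499 upward, against 2672 and 1541 without it. The block changed no call of a member.

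With 3 libraries per group, exact tests on sums cannot go below p = 0.1, and no batch can be separated from the groups. Length per gene rests on an annotation other than that of the table, so that the order of members per kb is less certain than the change of each.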
